A study of Mus musculus with 42 samples.

Results

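Reelin, the receptors and adaptor that relay its signal, and the transcription factors that mark the Cajal-Retzius neurons that secrete it were followed in embryonic mouse brain and in neuronal cultures made from it. The 8 genes were Reln, which encodes reelin, the receptor genes Vldlr and Lrp8, the adaptor gene Dab1, and Trp73, Lhx5, Lhx1 and Ebf3. They were chosen by name, with no measured value in the rule, and 24 of the 45037 probe sets (short groups of array probes that read one transcript) were annotated to them, so that they stand for 8 of the 18193 genes measured. All 24 probe sets were tested, with no filter on low values. Each gene is described by its main probe set, the one with the highest mean over all arrays.

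Reelin is a large glycoprotein of the extracellular matrix that guides the layering of neurons in the cortex and hippocampus. Cajal-Retzius neurons are early-born cells of the marginal zone, many of which come from the cortical hem at the border of the hippocampus, and they lie close to the pial surface and, in the hippocampus, along its fissure. Reelin binds the lipoprotein receptors encoded by Vldlr and Lrp8, Src family kinases then phosphorylate the adaptor Dab1, and phosphorylated Dab1 passes the signal to the cytoskeleton before it is degraded. GABAergic interneurons also make reelin, and in the postnatal forebrain they become its main source as most Cajal-Retzius neurons disappear.

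The arrays came from C57BL/6 mouse embryos that were wild type (WT) or carried a knockout of Fmr1 (Fmr1KO), the gene that is silenced in fragile X syndrome. Embryos were taken at 17 to 18 days of gestation, and none received a treatment. From 1 dissection, part of the hippocampus and cortex was kept as tissue (primary hippocampus and primary cortex) and part was grown for 14 days in vitro in Neurobasal with B27 (hippocampal culture and cortical culture). These media favour neurons, and some glia remain in them. Tissue and culture therefore differed in age as well as in preparation, and these cannot be told apart. There were 6 WT and 6 Fmr1KO arrays of primary hippocampus and 5 and 5 of each of the other 3 systems, 42 in all, each from RNA of pooled littermates. The mouse ID in the labels, called the litter here, was shared by all 4 systems in 10 of 12 cases. The labels do not explain this number, nor the entry NT that stands in its place for 1 WT case, and to read a shared number as shared littermates is an assumption. The sex of the embryos and the exact Fmr1 allele were not given in the sources used here.

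Values are signals on a log2 scale, so that a difference of 1 is a doubling. Genes that brain does not use, such as olfactory receptors and hair keratins, gave a background level of 5.17 (the 95th percentile of 121 such probe sets), and signals below it are treated as not distinguishable from absence. Because probe sets differ in how strongly they bind, levels were compared between samples and never between genes. In bulk RNA, fewer cells of a type and less RNA per cell cannot be told apart.

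Over the whole series, the array medians spanned 5.40 to 5.56 and no array was a copy of another (the closest arrays differed by 0.16 log2 in root mean square). Fmr1 itself was 1.86-fold to 1.99-fold lower in Fmr1KO than in WT in the 4 systems, and the genotypes did not overlap in any system. Markers of hippocampal identity were higher in primary hippocampus than in primary cortex for 6 of 6 genes, with list means of 9.21 to 9.94 and 6.85 to 7.29.

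The promoter sequences of Reln, Trp73, Lhx1 and Ebf3 are shown first, since the 4 genes moved together between the tissues. They are the 250 bases before the annotated gene start in RefSeq (mouse build GRCm38.p6), written 5′ to 3′ on the strand of the gene. Capitals mark CCCNNGGG, the core letters bound by Ebf factors, which reads the same on both strands and cannot overlap TAATTA, a core of many homeodomain factors, searched on both strands. CCCNNGGG was in 11.8% of the 32851 promoter windows of that length and TAATTA in 4.84%.

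Reln (chr5:22344706-22344955, minus strand): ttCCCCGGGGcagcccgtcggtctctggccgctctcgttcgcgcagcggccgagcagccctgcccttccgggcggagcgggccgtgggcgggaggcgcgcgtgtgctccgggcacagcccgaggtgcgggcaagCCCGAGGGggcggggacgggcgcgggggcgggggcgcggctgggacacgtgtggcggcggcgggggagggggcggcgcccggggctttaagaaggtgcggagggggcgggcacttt
Trp73 (chr4:154139876-154140125, minus strand): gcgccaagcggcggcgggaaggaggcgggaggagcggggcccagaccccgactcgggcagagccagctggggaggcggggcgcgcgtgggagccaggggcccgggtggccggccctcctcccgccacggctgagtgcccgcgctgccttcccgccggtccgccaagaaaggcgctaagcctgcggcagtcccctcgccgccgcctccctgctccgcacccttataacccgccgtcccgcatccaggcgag
Lhx1 (chr11:84525535-84525784, minus strand): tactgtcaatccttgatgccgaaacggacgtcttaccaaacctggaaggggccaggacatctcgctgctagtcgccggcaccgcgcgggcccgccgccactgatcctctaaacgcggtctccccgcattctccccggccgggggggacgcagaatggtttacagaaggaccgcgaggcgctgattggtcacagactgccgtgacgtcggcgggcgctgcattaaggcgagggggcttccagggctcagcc
Ebf3 (chr7:137314446-137314695, minus strand): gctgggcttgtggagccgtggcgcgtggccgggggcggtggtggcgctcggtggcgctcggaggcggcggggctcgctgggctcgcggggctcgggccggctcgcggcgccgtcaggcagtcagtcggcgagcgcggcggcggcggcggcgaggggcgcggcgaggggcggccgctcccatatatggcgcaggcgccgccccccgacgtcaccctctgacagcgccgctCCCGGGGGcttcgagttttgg

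The Reln window held CCCNNGGG 2 times and the Ebf3 window 1 time, and those of Trp73 and Lhx1 held none. No window of these 4 held TAATTA. The printed windows were rich in CG dinucleotides, with 37 in Reln, 31 in Trp73, 26 in Lhx1 and 43 in Ebf3 against a median of 6 over all windows, and 0.712% of windows held as many as Ebf3. Trp73 had a second annotated start, whose window (chr4:154097174-154097423, minus strand) held 6, the median. The windows not printed held 40 and 10 in Dab1, 5 and 18 in Vldlr, and 18, 5 and 2 in Lrp8. Only 1.31% of windows held as many as the first of Dab1, which moved the other way between the tissues. Lrp8 moved the same way as the 4 genes, so CG counts did not follow that direction. Of the 8 genes, 7 had at least 1 window, and Lhx5 had none. Such matches describe letters in a window and no factor was measured on them.

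Reelin mRNA was abundant in all 4 systems and highest in primary hippocampus. In primary hippocampus the 12 Reln signals ran from 11.94 through a median of 12.24 to 12.45, and in primary cortex the 10 signals ran from 11.34 through 11.41 to 11.56. In hippocampal culture they ran from 9.52 through 10.70 to 11.53, and in cortical culture from 10.36 through 11.48 to 11.94. Every primary hippocampus array lay above every array of the other systems, though the highest cortical culture and the lowest primary hippocampus array both read 11.94.

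The systems fell in the order primary hippocampus (12.25 ± 0.15, SD, n = 12), primary cortex (11.44 ± 0.09, n = 10), cortical culture (11.37 ± 0.51, n = 10) and hippocampal culture (10.69 ± 0.58, n = 10). Primary cortex and cortical culture, neighbours in that order, differed by less than their spread, and the other neighbours differed by more by the tests given below. The spread itself was wider in the cultures than in the tissues.

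**Figure D1:**
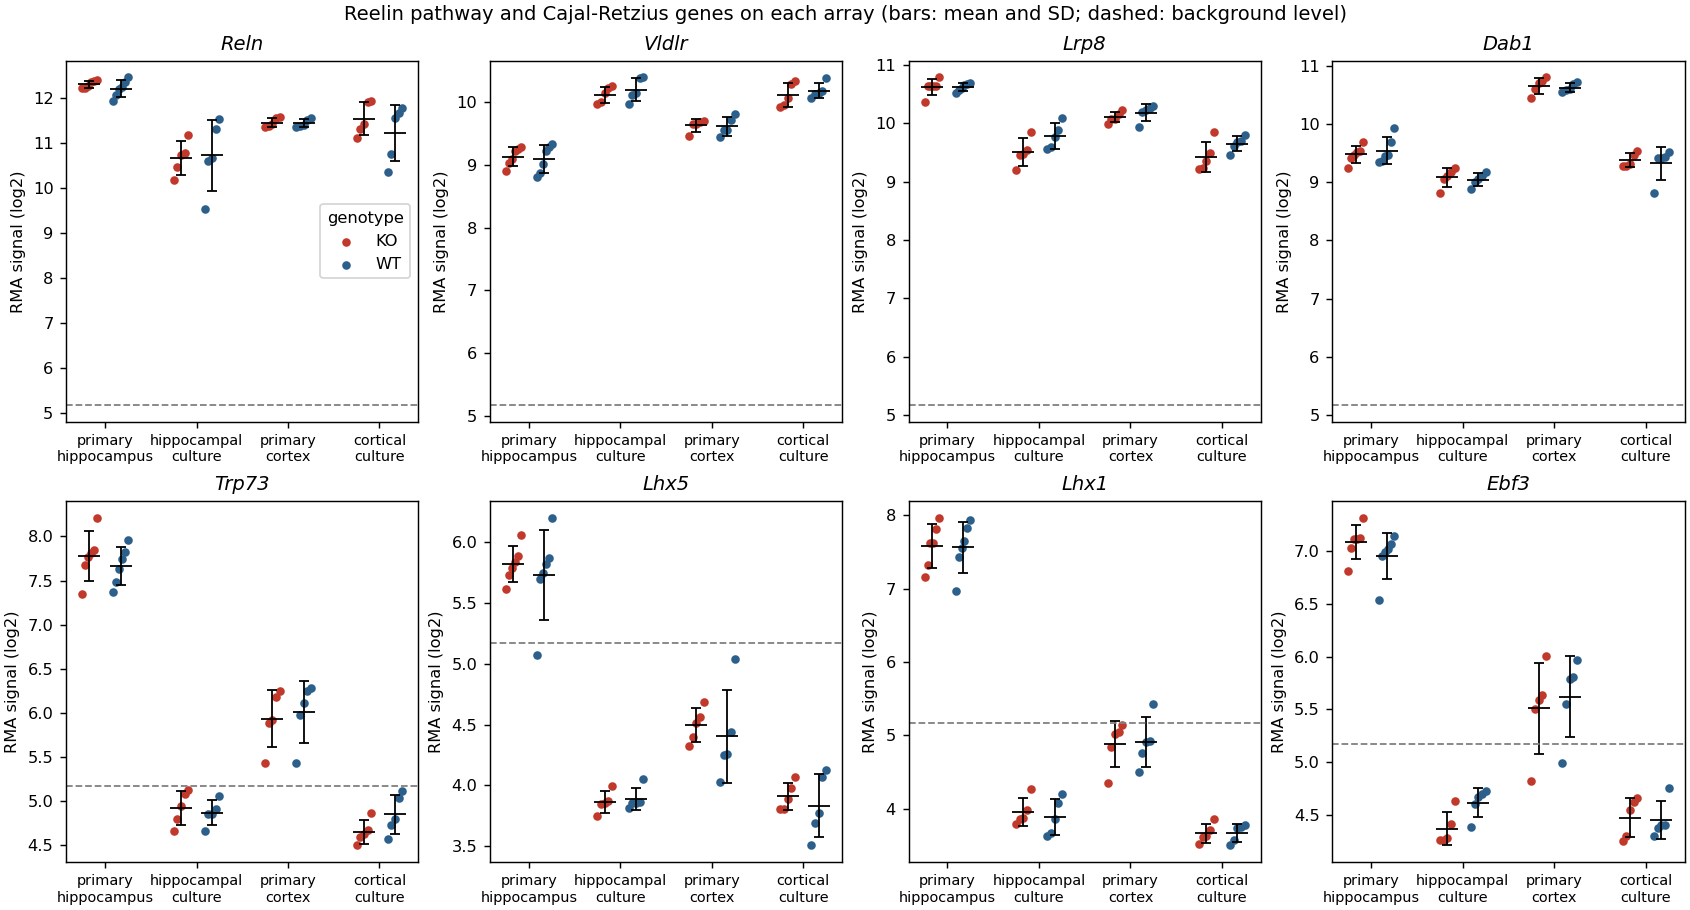
Log2 signal of the main probe set of each of the 8 genes (1 panel a gene) in each of the 42 arrays, by system and genotype, with the background level of 5.17 as a dashed line. Reln, Vldlr, Lrp8 and Dab1 lie above background in every array, while Trp73, Lhx5, Lhx1 and Ebf3 lie below it in all 20 culture arrays and are highest in primary hippocampus.

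In hippocampal culture, Reln was 2.94-fold lower than in primary hippocampus, a log2 difference of -1.56 (SE 0.16; limma with Benjamini-Hochberg adjustment over all probe sets, adjusted p = 7.44e-11). It was lower in the culture of 10 of 10 litters, by 0.65 at the least and 2.83 at the most. In cortical culture Reln showed no such fall: the difference from primary cortex was -0.07 (95% confidence interval -0.42 to 0.28, limma adjusted p = 0.738), with 5 litters higher and 5 lower. The difference between these 2 differences was itself -1.49 (limma adjusted p = 5.92e-06).

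Between regions, Reln was 1.75-fold higher in primary hippocampus than in primary cortex (log2 0.81, SE 0.16, limma adjusted p = 1.49e-04), in 10 of 10 litters. After 14 days in vitro the order was the other way round, with Reln 1.6-fold lower in hippocampal than in cortical culture (log2 -0.68, SE 0.17, limma adjusted p = 0.00245), again in 10 of 10 litters. In the WT arrays alone both kept their direction but not their call (0.76, limma adjusted p = 0.0719, and -0.50, limma adjusted p = 0.36). The other Reln probe set was below background in every group and adds nothing.

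GABAergic interneurons, the other known source of reelin, differed by region. Of 12 measured interneuron genes, 9 were lower and 0 higher in primary hippocampus than in primary cortex, and 9 were lower and 0 higher in hippocampal than in cortical culture. Of all genes, 16.7% were lower in the first comparison and 13.5% in the second. Between culture and tissue the interneuron genes split, with 6 higher and 4 lower in hippocampus and 5 and 5 in cortex. Of all genes, 35.9% were higher and 36.2% lower in hippocampal culture, and 35.3% and 35.9% in cortical culture. The mean signal of the interneuron genes ran from 6.17 to 7.07 in hippocampal culture, 7.07 to 7.50 in cortical culture, 5.76 to 7.12 in primary hippocampus and 6.78 to 7.46 in primary cortex. Across the arrays of a culture, Reln and this mean had a Pearson r of 0.40 in hippocampal culture (n = 10; permutation p = 0.247, adjusted 0.395). In cortical culture r was 0.29 (n = 10; permutation p = 0.424, adjusted 0.55). The part of interneurons in the Reln differences between systems was not tested.

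The transcription factors of Cajal-Retzius neurons had a plainer pattern than Reln. All 4 were highest in primary hippocampus and below background in every culture array of either region. In primary cortex Trp73 was above background in 10 of 10 arrays and Ebf3 in 8, while Lhx1 was above it in 1 and Lhx5 in 0, so that no order of primary cortex and cultures can be given for Lhx1 and Lhx5. The mean of the 4 signals, values below background included, was 6.72 to 7.28 in primary hippocampus, 4.73 to 5.58 in primary cortex, 4.14 to 4.47 in hippocampal culture and 4.05 to 4.36 in cortical culture, with no overlap between the tissues or between tissue and culture.

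Trp73 encodes p73, a relative of p53 that Cajal-Retzius neurons need to survive. It read 7.35 at the lowest, 7.75 at the median and 8.21 at the highest in primary hippocampus, and 5.43, 6.04 and 6.28 in primary cortex. In the cultures it read 4.66, 4.89 and 5.12 (hippocampal) and 4.50, 4.71 and 5.11 (cortical). The 3 levels did not overlap: hippocampal tissue, cortical tissue, and cultures. Trp73 was 3.36-fold higher in primary hippocampus than in primary cortex (log2 1.75, limma adjusted p = 5.14e-17). Because the culture signals were under background, the falls in culture are bounds: at least 5.87-fold in hippocampus (fitted log2 -2.83, SE 0.10, limma adjusted p = 1.13e-24) and at least 1.75-fold in cortex (-1.22, limma adjusted p = 4.71e-13). Its second probe set was below background throughout.

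Lhx1 encodes a LIM homeodomain factor. Its signals in primary hippocampus ran from 6.97 through 7.62 to 7.97, and those in primary cortex from 4.35 through 4.92 to 5.43, where 1 of 10 arrays was above background. In the cultures the highest array reached 4.28. The hippocampal tissue therefore stood alone, with a level at least 5.29-fold above both hippocampal culture (fitted log2 -3.65 for culture minus tissue, SE 0.11, limma adjusted p = 7.16e-27) and primary cortex (fitted log2 2.68, limma adjusted p = 2.51e-21). The second probe set gave no call for cortical culture against primary cortex (-0.16, limma adjusted p = 0.107), where the main one fell by 1.22 with both groups below background. Hippocampal and cortical culture differed by 0.25, also below background, and was not called (limma adjusted p = 0.108). It was called with the litter as a fixed block (limma adjusted p = 0.0285) and in a fit of the culture arrays alone (limma adjusted p = 0.0292).

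Ebf3, a helix-loop-helix factor of the Ebf family, ran from 6.53 through 7.05 to 7.32 in primary hippocampus and from 4.82 through 5.61 to 6.01 in primary cortex. All 12 hippocampal and 8 of 10 cortical tissue arrays were above background. Ebf3 was 2.74-fold higher in primary hippocampus than in primary cortex (log2 1.45, limma adjusted p = 2.34e-14). It was lower in culture by at least 3.6-fold in hippocampus (fitted log2 -2.52, SE 0.10, limma adjusted p = 7.84e-23) and at least 1.32-fold in cortex (-1.10, limma adjusted p = 1.47e-11), and its 3 probe sets had the same direction.

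Lhx5, another LIM homeodomain factor of Cajal-Retzius neurons, was the factor with fewest arrays above background. It ran from 5.07 through 5.80 to 6.20 in primary hippocampus, with 11 of 12 arrays above background, and was below background in every array of the other systems. Its level in primary hippocampus was at least 1.52-fold above that in hippocampal culture (fitted log2 -1.90 for culture minus tissue, limma adjusted p = 5.85e-20) and in primary cortex (fitted log2 1.33, limma adjusted p = 4.48e-14). The gene had 1 probe set.

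Markers of other tissues and cell types moved with these 4 genes. Of the genes of the cortical hem and pallial border, 5 of 7 were higher and 0 lower in primary hippocampus than in primary cortex, among them Emx2 (log2 2.24), Dmrta2 (1.49), Zic1 (1.86) and Wnt3a (at least 2.09-fold, since it was below background in primary cortex), all by limma at adjusted p of 5.71e-06 or less. Of 9 meningeal genes 8 were higher, and of 8 choroid plexus genes 7, where 19.7% of all genes were higher. Meningeal and choroid plexus list means were 5.95 to 6.72 and 6.07 to 7.61 in primary hippocampus against 5.20 to 5.61 and 4.36 to 5.78 in primary cortex. The diencephalon list, which would read thalamus or hypothalamus in the dissection, had a mean between 4.33 and 4.77 in all 4 systems. A list mean under background does not show that each of its genes was absent. Progenitor genes (6 of 8) and microglial genes (6 of 7) were also higher in primary hippocampus.

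Between culture and tissue, several lists held genes that fell with the factors. In hippocampal culture 8 of 8 progenitor, 7 of 7 microglial, 7 of 9 meningeal, 5 of 6 endothelial and 4 of 7 hem and pallial border genes were lower than in primary hippocampus. In cortical culture the counts were 5 of 8, 7 of 7, 4 of 9, 5 of 6 and 3 of 7, with 2 progenitor, 3 meningeal and 1 hem gene higher. Over all genes 36.2% were lower in hippocampal and 35.9% in cortical culture. The meningeal and hem counts in cortical culture lay near that share. Choroid plexus list means were 5.46 to 6.49 in hippocampal and 4.78 to 5.30 in cortical culture, and overlapped those of the tissues. The part of these tissues and cell types in the transcription factor differences was not tested.

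The receptors and the adaptor each had their own order of systems. Vldlr, which encodes a receptor that takes up lipoproteins and binds reelin, was the 1 gene of the 8 that rose in culture. Its signals ran from 8.81 through 9.15 to 9.33 in primary hippocampus, from 9.44 through 9.65 to 9.80 in primary cortex, from 9.96 through 10.15 to 10.39 in hippocampal culture and from 9.92 through 10.14 to 10.39 in cortical culture. By this main probe set the cultures lay above the tissues with no overlap, and the tissues did not overlap with each other. In the other Vldlr probe sets cortical culture and primary cortex overlapped.

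Vldlr was 2.07-fold higher in hippocampal culture than in primary hippocampus (log2 1.05, SE 0.07, limma adjusted p = 1.02e-16) and 1.44-fold higher in cortical culture than in primary cortex (log2 0.53, limma adjusted p = 3.20e-08). It was 1.43-fold lower in primary hippocampus than in primary cortex (log2 -0.51, limma adjusted p = 1.29e-07), the opposite of Reln. The cultures of the 2 regions differed by 0.01 (95% confidence interval -0.13 to 0.16, limma adjusted p = 0.926). All 6 Vldlr probe sets rose in hippocampal culture, by 0.93 to 1.15. In cortical culture 4 of 6 rose, and the other two gave 0.02 (limma adjusted p = 0.842) and 0.13 (limma adjusted p = 0.402).

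Lrp8 encodes apolipoprotein E receptor 2, the other reelin receptor, which also acts at synapses. It was highest in primary hippocampus (10.37 at the lowest, 10.65 at the median, 10.79 at the highest), followed by primary cortex (9.93, 10.18 and 10.29). Hippocampal culture (9.20, 9.58 and 10.10) and cortical culture (9.21, 9.55 and 9.85) were lower and overlapped each other. Lrp8 fell 1.97-fold in hippocampal culture (log2 -0.98, SE 0.07, limma adjusted p = 4.22e-15) and 1.52-fold in cortical culture (log2 -0.61, limma adjusted p = 4.40e-09). In tissue it was 1.39-fold higher in hippocampus (log2 0.47, limma adjusted p = 1.57e-06), while the cultures differed by 0.10 (limma adjusted p = 0.348). The receptor genes thus moved in opposite directions between tissue and culture and between the tissues, and the 3 Lrp8 probe sets had the same direction in the culture comparisons.

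Dab1, the adaptor that both receptors share, was highest in primary cortex. Its signals ran from 10.45 through 10.64 to 10.80 there, from 9.24 through 9.46 to 9.94 in primary hippocampus, from 8.82 through 9.41 to 9.53 in cortical culture and from 8.82 through 9.08 to 9.24 in hippocampal culture. Primary cortex stood above every other array. Dab1 was 2.19-fold lower in primary hippocampus than in primary cortex (log2 -1.13, limma adjusted p = 1.04e-15). It fell 2.45-fold in cortical culture (log2 -1.29, limma adjusted p = 5.61e-18) and 1.36-fold in hippocampal culture (log2 -0.45, SE 0.07, limma adjusted p = 1.12e-06). Hippocampal culture was 1.22-fold below cortical culture (log2 -0.29, limma adjusted p = 0.00408), lower in 9 of 10 litters and called for 2 of its 5 probe sets. In the WT arrays alone it was not called (-0.28, limma adjusted p = 0.183). In 1 of the 5 probe sets the fall in hippocampal culture was not called (-0.10, limma adjusted p = 0.273).

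**Figure D2:**
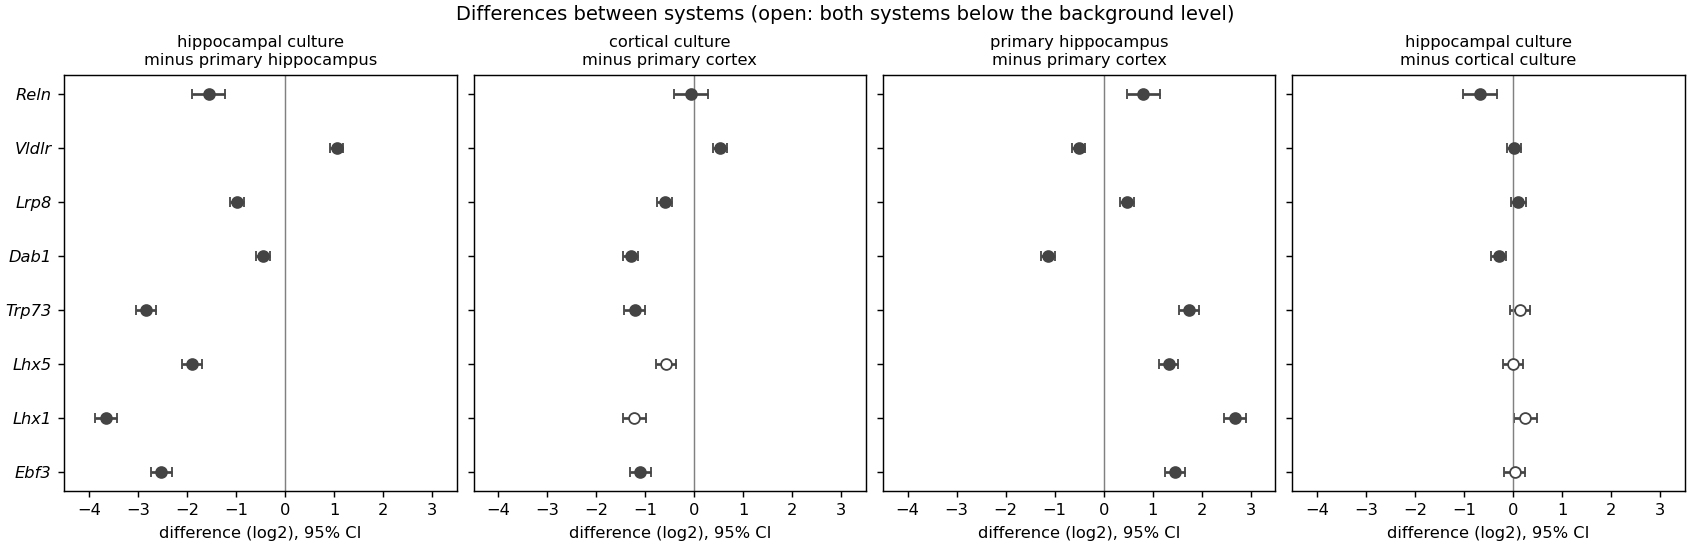
Log2 difference of each of the 8 genes in the comparisons between systems, as points with 95% confidence intervals from limma (open where both systems were below background). Vldlr alone lies above 0 in hippocampal culture minus primary hippocampus (1.05), Lhx1 has the lowest fitted value (-3.65, with the culture below background), and Reln in cortical culture minus primary cortex sits at -0.07 with an interval that holds 0.

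Counted together, 1 of the 8 genes was higher and 7 were lower in hippocampal culture than in primary hippocampus by limma at adjusted p under 0.05, where 35.9% and 36.2% of all genes were called in those directions. In cortical culture against primary cortex 1 was higher, 6 were lower (Lhx5 and Lhx1 with both systems below background) and Reln was not called, against 35.3% and 35.9% of all genes. In primary hippocampus against primary cortex 6 were higher and 2 lower, against 19.7% and 16.7%. In hippocampal against cortical culture 0 were higher and 2 lower, against 14.7% and 13.5%. Their median log2 differences were -1.73, -0.85, 1.07 and 0.02, where the medians over all genes were 0.02, 0.01, -0.01 and -0.01.

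Groups without any overlap of arrays were seen for 1 higher and 6 lower of the 8 genes in hippocampal culture against tissue (15.0% and 22.5% of all genes). The corresponding counts were 1 and 5 in cortical culture against tissue (15.3% and 22.1%), 6 and 2 between the tissues (8.32% and 4.95%), and 0 and 0 between the cultures (1.60% and 1.39%). Within litters, the differences from culture to tissue and between tissues had the same sign in 10 of 10 litters for every one of the 8 genes but Reln in cortex, with an exact two-sided sign-flip p of 0.00195, the smallest that 10 litters allow (0.0026 after adjustment over 32 tests). In cortical culture against tissue, Lhx5 and Lhx1 had means below background on both sides, so their signs are not measured differences. Lhx1 is also 1 of the 5 genes without overlap there.

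By limma's interaction term the effect of preparation was called as different between the regions for 8 of the 8 genes (32.0% of all genes). The fitted fall in hippocampus exceeded that in cortex by 2.42 log2 units for Lhx1, 1.61 for Trp73, 1.49 for Reln, 1.42 for Ebf3, 1.32 for Lhx5 and 0.37 for Lrp8 in size. For Dab1 the fall was larger in cortex (0.85), and the rise of Vldlr was larger in hippocampus (0.52). The sizes for the 4 factors are fitted values only, since their culture levels were below background, and for Lhx1 and Lhx5 those in primary cortex as well. With both cultures below background, the term for these 4 genes largely restates the difference between the tissues. Their 4 calls are therefore not separate findings. In the WT arrays alone the term was no longer called for Reln (-1.26, limma adjusted p = 0.0589) and Lrp8 (-0.30, limma adjusted p = 0.171).

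Genes known from Cajal-Retzius neurons but not among the 8 were mixed. Of 11, 9 were lower, Calb2 was higher and Ebf2 was not called in hippocampal culture against primary hippocampus, and 7 were lower and 0 higher in cortical culture. In primary hippocampus 7 were higher and 2 lower (Tbr1 and Ebf2) than in primary cortex. Of all genes, 36.2% were lower in hippocampal and 35.9% in cortical culture, and 19.7% were higher and 16.7% lower between the tissues. Ebf1, Ebf2 and Barhl2 had means at or below background in every system, and Nhlh1 was above it in primary hippocampus alone of the 4. Calls of Ebf1, Ebf2 and Barhl2 are within these counts and are not read as measured differences.

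Nhlh2, a helix-loop-helix factor of early neurons, differed from the 4 factors by staying well above background in hippocampal culture. Its means were 10.31 in primary hippocampus, 8.21 in primary cortex, 7.24 in hippocampal culture and 3.34 in cortical culture, so that it was at least 4.22-fold higher in hippocampal than in cortical culture, where it was below background (fitted log2 3.90, limma adjusted p = 1.63e-23). Calb2, which encodes calretinin, was higher in hippocampal culture (mean 11.38) than in cortical culture (7.71), primary hippocampus (9.65) and primary cortex (7.69). Calretinin also marks interneurons and granule cells. Cxcr4, a chemokine receptor that holds Cajal-Retzius neurons at the meninges, fell from 9.23 to 6.11 in hippocampus and from 7.11 to 5.28 in cortex. Tbr1, which is shared with deep-layer projection neurons, was 9.56 in primary cortex and 8.62 in primary hippocampus, against 6.40 and 6.13 in their cultures.

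**Figure D3:**
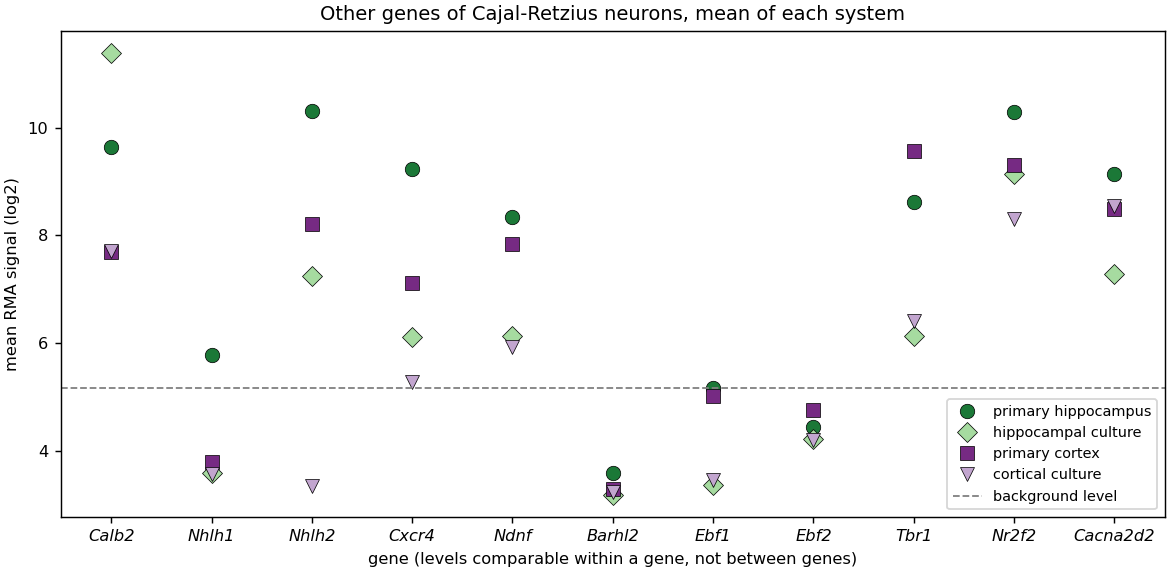
Mean log2 signal of the 11 other Cajal-Retzius genes in the 4 systems (1 symbol a system, each the mean of 10 or 12 arrays), with the background level of 5.17 as a dashed line. Nhlh2 reads 7.24 in hippocampal and 3.34 in cortical culture, and Calb2 is highest in hippocampal culture at 11.38.

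The reelin pathway outside the 8 genes was split. Of 45 measured genes, 17 were higher and 24 lower in hippocampal culture than in tissue (median -0.22), 16 higher and 24 lower in cortical culture (median -0.15), 12 higher and 15 lower in primary hippocampus than in primary cortex (median -0.03), and 12 higher and 10 lower in hippocampal than in cortical culture (median 0.06). Over all genes the medians were within 0.02 of 0. In culture against tissue, 35.9% of all genes were higher and 36.2% lower (hippocampal) and 35.3% and 35.9% (cortical). Between regions the shares were 19.7% and 16.7% in tissue and 14.7% and 13.5% in culture. The counts of pathway genes higher in culture than in tissue lay near these shares.

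Other ligands of the receptors rose, and proteases that act on reelin or are related to those that do were split. Of 7 such ligand and protease genes measured, 5 rose and 2 fell in each culture. Of all genes, 35.9% rose and 36.2% fell in hippocampal culture, and 35.3% and 35.9% in cortical culture. Apoe, a ligand of both receptors and an astrocyte product, rose by 1.96 in hippocampal and 4.41 in cortical culture, and Clu, another lipoprotein component, by 1.90 and 3.30. Thbs1, a matrix protein that binds the same receptors, rose by 2.71 and 2.41. Astrocyte markers moved with them: their list mean was 8.90 to 9.40 and 8.73 to 9.44 in hippocampal and cortical culture against 7.35 to 7.99 and 6.72 to 7.16 in the tissues, and their part was not tested. Adamts3, a protease that cleaves and inactivates reelin, rose by 1.06 in hippocampal culture and fell by 1.22 in cortical culture. Between regions its order was the reverse of that of Reln, lower in primary hippocampus than in primary cortex (-1.29) and higher in hippocampal than in cortical culture (0.98). Adamts4, a related protease, fell to below background, by at least 1.45-fold in hippocampal and 1.13-fold in cortical culture.

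Among 15 kinases and adaptors downstream, 10 fell and 4 rose in hippocampal culture and 10 fell and 2 rose in cortical culture. For these and the effectors below, the shares of all genes that fell and rose were 36.2% and 35.9% (hippocampal) and 35.9% and 35.3% (cortical). Fyn, the main kinase of Dab1, was not called in hippocampal culture (0.05) and fell by 0.15 in cortical culture, and Src fell by 0.38 and 0.32. Crkl, an adaptor that binds phosphorylated Dab1, fell by 1.10 and 0.87, and the Src family kinase gene Yes1 by 2.12 and 1.49. Of 12 effectors on microtubules and actin, 7 fell and 4 rose in hippocampal culture and 6 fell and 4 rose in cortical culture. Here the subunits of the platelet-activating factor acetylhydrolase complex parted: Pafah1b1 (Lis1), which binds dynein, rose by 0.81 and 0.32, while the catalytic subunit genes Pafah1b3 and Pafah1b2 fell by 2.65 and 2.50 and by 1.06 and 1.22.

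Genes that end the signal also moved apart. Mylip, a ligase that marks Vldlr and Lrp8 for degradation, rose by 0.59 in hippocampal and 0.65 in cortical culture. Socs6, an adaptor of the ligase that degrades Dab1, fell by 1.20 and 1.35, and Cul5, the scaffold of that ligase, by 0.13 and 0.65. All of these were called by limma at adjusted p under 0.05.

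Fmr1 genotype moved the 8 genes little. By limma at unadjusted p under 0.05, the threshold of the study's methods, 1 of 8 was called in hippocampal culture (9.54% of all genes) and 1 of 8 in cortical culture (10.2%), the same gene, Lrp8. In primary hippocampus (1.54%) and primary cortex (1.66%) 0 of 8 were called. After adjustment 0 of 8 were called in any system, where the share of all genes called was 0.00550% in each system but primary hippocampus, with 0.0165%. No gene of the 8 had Fmr1KO and WT arrays without overlap in any system.

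Lrp8 in hippocampal culture read 9.20, 9.45, 9.48, 9.55 and 9.86 in the Fmr1KO arrays and 9.56, 9.60, 9.77, 9.88 and 10.10 in the WT arrays. In cortical culture it read 9.21, 9.24, 9.36, 9.49 and 9.85 in Fmr1KO and 9.46, 9.60, 9.68, 9.70 and 9.80 in WT. Most Fmr1KO arrays lay below most WT arrays in both cultures, but the highest Fmr1KO array lay above 3 of the 5 WT arrays in hippocampal culture and above all 5 in cortical culture.

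The Fmr1KO minus WT difference was -0.27 in hippocampal culture (SE 0.11; limma p = 0.0145, adjusted p = 0.447; exact permutation p = 0.0794) and -0.22 in cortical culture (SE 0.11; limma p = 0.0461, adjusted p = 0.509; exact permutation p = 0.135). Fmr1KO lay below WT in 22 of 25 and 19 of 25 pairs of arrays. The other two probe sets gave -0.14 and -0.06 in hippocampal culture and -0.46 and -0.13 in cortical culture, where only the -0.46 had an unadjusted limma p under 0.05 (8.99e-04, adjusted p = 0.309). Both calls depended on the arrays used. With only the arrays of the culture in question neither was called. The call was lost in hippocampal culture without the Fmr1KO array of litter 4236 or the WT array of litter 2643, and in cortical culture without any 1 of 7 of the 10 arrays (Fmr1KO litters 2037, 2221 and 4236, WT litters 2236, 2643, 3569 and NT). In primary hippocampus and primary cortex the differences were 0.00 and -0.07 (exact permutation p = 0.974 and 0.365). The difference in the Fmr1 effect between culture and tissue was called for 0 of 8 genes in either region, where 4.58% (hippocampus) and 4.64% (cortex) of all genes were called.

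In the cultures Reln had the widest spread within a genotype of the 8 genes. In hippocampal culture it read 10.17, 10.47, 10.73, 10.78 and 11.18 in Fmr1KO and 9.52, 10.59, 10.67, 11.30 and 11.53 in WT. In cortical culture it read 11.11, 11.30, 11.41, 11.90 and 11.94 in Fmr1KO and 10.36, 10.75, 11.54, 11.66 and 11.78 in WT. The genotypes overlapped widely, with WT holding both the lowest and the highest hippocampal culture.

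The differences were -0.06 in hippocampal culture (exact permutation p = 0.889) and 0.31 in cortical culture (exact permutation p = 0.373). With array weights in the limma fit the difference in cortical culture was 0.50, past the unadjusted threshold but not after adjustment (limma adjusted p = 0.394), and Lrp8 was then not called there. In primary cortex the genotypes spanned almost the same range, at 11.34 to 11.56 in Fmr1KO and 11.34 to 11.55 in WT. The smallest exact p among the 32 comparisons of a gene in a system was 0.0397, for Ebf3 in hippocampal culture, where both genotypes were below background, and it was 0.957 after adjustment over the 32.

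**Figure D4:**
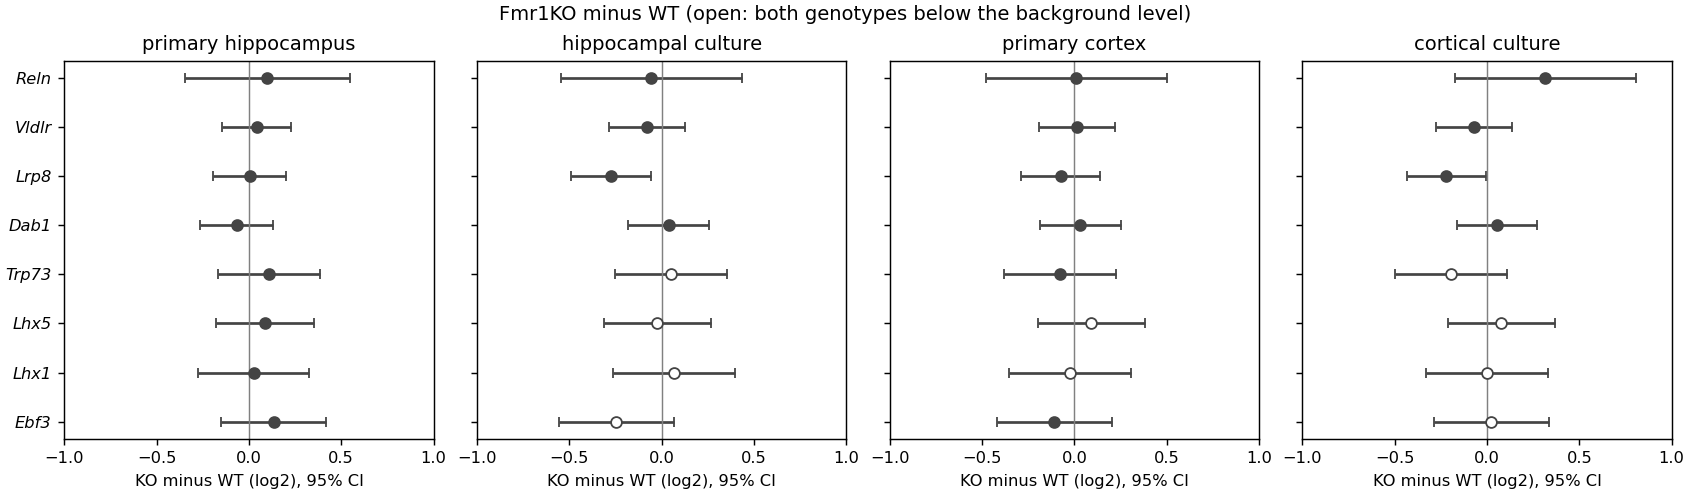
Fmr1KO minus WT log2 difference of the 8 genes in each of the 4 systems, with 95% confidence intervals from limma and open points where both genotypes were below background. The Lrp8 intervals, around -0.27 and -0.22, lie below 0 in both cultures, and all other intervals hold 0.

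In the rest of the pathway, 5 of 45 genes were higher and 3 lower in Fmr1KO hippocampal culture and 6 higher and 1 lower in Fmr1KO cortical culture at unadjusted p under 0.05, and 0 after adjustment by limma. Of all 18193 genes, 1250 were higher and 485 lower in hippocampal culture, and 1122 higher and 736 lower in cortical culture. Crk, an adaptor that binds phosphorylated Dab1, was higher in both (log2 0.24, limma adjusted p = 0.372, and 0.33, limma adjusted p = 0.291). Nck2, another such adaptor, was higher in cortical culture (0.43, limma adjusted p = 0.169). In the tissues 0 were higher and 1 lower in each, Adamts4 both times (-0.24 and -0.20).

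Arrays of 2 litters read low for several of these genes. In primary cortex the Fmr1KO litter 4236 and the WT litter 3569 had the 2 lowest arrays for Trp73 (5.43 and 5.43), Lhx1 (4.35 and 4.50) and Ebf3 (4.82 and 4.99). Their means over the 4 factors were 4.73 and 4.74, and the other 8 litters ran from 5.24 to 5.58. In the cultures Reln was lowest for litter 3569, at 9.52 (hippocampal) and 10.36 (cortical). Litter 4236 read 10.17 and 11.11, rank 2 and rank 3 from the lowest. Tissue Reln of these litters was not low, at 12.35 and 11.40 for litter 3569 and 12.37 and 11.38 for litter 4236. The litters were of different genotypes, and they were singled out after their values were seen. Without them Reln in hippocampal culture minus primary hippocampus was -1.32 (limma adjusted p = 1.60e-10), and the differences of Trp73 and Ebf3 between the tissues were 1.66 and 1.36.

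**Figure D5:**
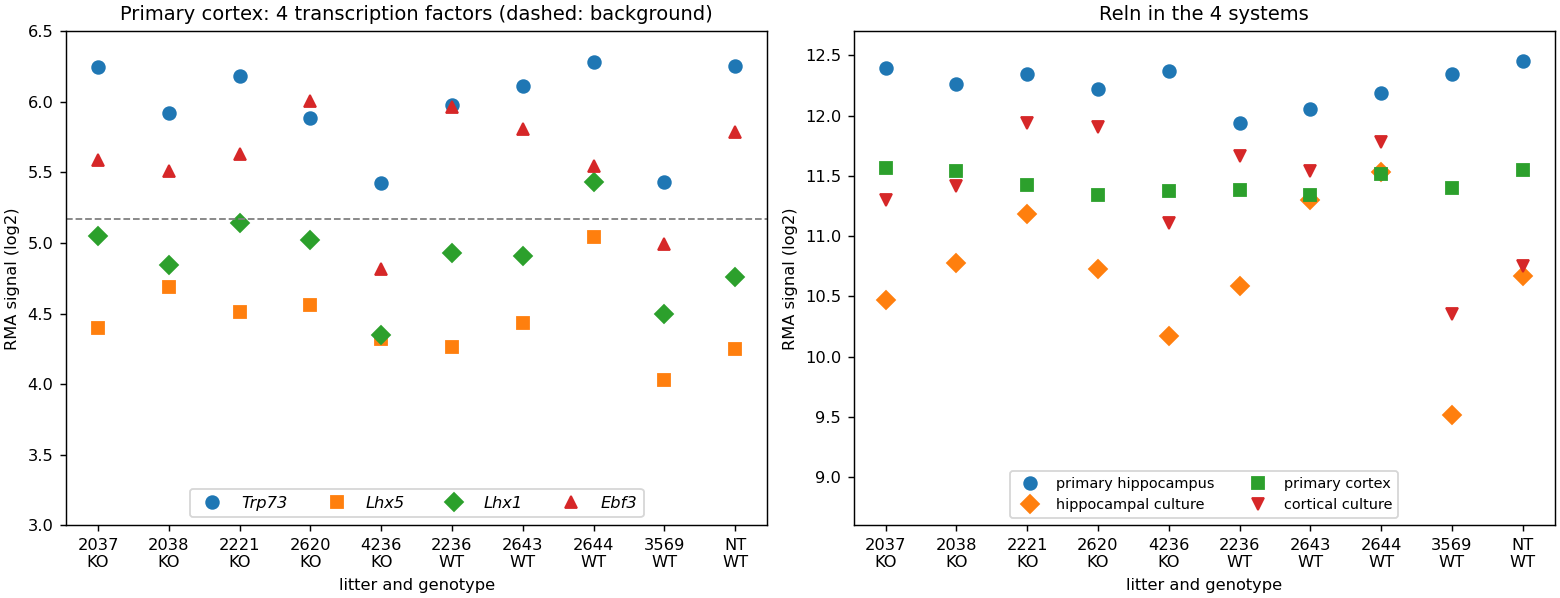
Left, log2 signals of Trp73, Lhx5, Lhx1 and Ebf3 in primary cortex by litter and genotype, with the background level of 5.17 dashed; right, log2 signal of Reln in the 4 systems by litter. Litters 4236 and 3569 are lowest for Trp73 (5.43 and 5.43) on the left, and litter 3569 is lowest in both cultures (9.52 and 10.36) on the right.

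Across litters Reln in hippocampal culture and Reln in cortical culture had a Pearson r of 0.77 (n = 10; permutation p = 0.00832, adjusted over 16 relations 0.0666) and a Spearman rho of 0.70 (permutation p = 0.03, adjusted 0.29). Without litters 3569 and 2644, the 2 farthest from the median in hippocampal culture, r was 0.50, weaker and of the same sign. Of the 28 relations between Reln and another of the 8 genes within a system, 0 passed an adjusted p of 0.05. The nearest was with Vldlr, at r = -0.78 in hippocampal culture (n = 10; permutation p = 0.00668, adjusted 0.109; rho -0.87, permutation p = 0.00194, adjusted 0.0543; r = -0.57 without the 2 farthest) and r = 0.71 in primary hippocampus (n = 12; permutation p = 0.0078, adjusted 0.109; rho 0.69; r = 0.57 without the 2 farthest). In cortical culture and primary cortex r was 0.22 and 0.27 (permutation p = 0.54 and 0.436). Relations within a genotype, of 5 or 6 arrays, were not computed.

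The genes whose deviations from their group means followed those of Reln most closely over the 42 arrays were Sox4 (r = 0.89), a factor of immature neurons, Sncaip (0.86), Thap2 (0.85), Ankrd44 (0.85) and Zfp518b (0.84), out of 22956 probe sets compared. These values came from the cultures: over the 20 culture arrays Sox4 had r = 0.94, and over the 22 tissue arrays r = -0.48. Those most like Lhx5 were Gpank1 (0.61), Trip10 (0.54), Rdm1 (0.52), Obsl1 (0.50) and Cnp (0.50), lower values that are given as a description only. Lhx5 was above background only in primary hippocampus, so most of its deviations were those of signals below background. For Gpank1 r was 0.24 over the 20 culture arrays and 0.83 over the 22 tissue arrays.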

How the data were processed

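RNA (100 ng per array, from pooled littermates) was measured on Affymetrix mouse expression arrays in 42 samples. The deposited values are log2 signals that the authors obtained with the affy package and RMA (named in the submitters' processing notes, with no version), which corrects background, quantile-normalizes the arrays and summarizes probes. This equalizes array distributions, so that a change shared by most genes would not be seen. Of 45101 probe sets, 64 controls were left out. Gene names came from the platform annotation: 34945 probe sets had 1 gene, 932 several and 9160 none, and none was named from several.

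Groups came from the labels. One limma 3.58.1 fit (R 4.3.3, lmFit and eBayes on 8 group means, 34 residual degrees of freedom) used all arrays, with Benjamini-Hochberg adjustment over the 45037 probe sets. Comparisons between systems used the mean of both genotypes and an adjusted p under 0.05; Fmr1KO comparisons used an unadjusted p under 0.05, as in the methods, beside the adjusted one and exact permutation tests (SciPy 1.17.1; 100000 permutations for correlations). A "fold" with one side below background is a bound against the background level. The methods state that WT and Fmr1KO pairs were handled on the same day, and the labels do not give the pairs, so no day was modelled. The fit was tested on simulated data.

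A shared mouse ID was read as tissue and cultures of the same pooled littermates, which the labels do not state, and samples were paired across systems by it: same-litter deviations had a median correlation of 0.304 between the cultures (over 0.1 in 9 of 10 pairs), 0.417 between the tissues (10 of 10) and 0.03 to 0.08 between culture and tissue. Litters are nested in genotype. The litter as a block was an alternative, with a consensus correlation of 0.0681. Other alternatives were quantile normalization and median centring of the arrays, array weights, only the arrays compared, the choice of probe set, a 2-fold threshold and leaving out each array. The 8 genes, the gene lists and the tests were chosen with earlier results of these data known. Named genes were the 8, Fmr1, up to 4 genes with the smallest p per list or pathway role and comparison (Src, Ebf1, Ebf2 and Barhl2 were added after their values were seen), and the 5 most like Reln and Lhx5. Replicate p-values measure the spread between pools of littermates. The number of arrays limits the precision.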

Additional observations from a re-analysis of the deposited data

Results flagged for a closer look

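In 7 of 64 groups (a gene in a genotype and system), the highest or lowest array stood apart from the rest by Dixon's criterion, where chance gives about 1 in 20 groups. They were Vldlr in Fmr1KO primary cortex (litter 2221, 9.45, lowest), Lrp8 in Fmr1KO primary hippocampus (litter 2620, 10.37, lowest), Lrp8 in WT primary cortex (litter 2644, 9.93, lowest) and Dab1 in WT cortical culture (litter 2236, 8.82, lowest). The other three were Lhx5 in WT hippocampal culture (litter 2644, 4.05, highest), Ebf3 in WT cortical culture (litter NT, 4.76, highest) and Ebf3 in WT primary hippocampus (litter 3569, 6.53, lowest). The culture signals of Lhx5 and Ebf3 were below background.

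The change from tissue to culture was called as different between hippocampus and cortex for all 8 genes by limma's interaction term. The difference of the log2 changes (hippocampus minus cortex) was -2.42 for Lhx1, -1.61 for Trp73, -1.49 for Reln, -1.42 for Ebf3, -1.32 for Lhx5, -0.37 for Lrp8, 0.52 for Vldlr and 0.85 for Dab1. The values of Lhx1, Trp73, Ebf3 and Lhx5 are fitted sizes and not measured ones, since these genes were below background in both cultures, and Lhx1 and Lhx5 in primary cortex too. For these genes the term largely restates the difference between the tissues.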

How the results depend on the processing

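Of 232 recomputed counts over the 8 genes, 212 stayed within 1.5 times the value reported and 20 did not. Of 1312 recomputed values of single genes, 1267 kept their direction and call, 28 lost the call, 12 gained it, 5 without a call moved by more than the spread between replicates, and 0 turned round. A 2-fold threshold left 0 genes higher in cortical culture than in primary cortex, 1 lower in primary hippocampus than in primary cortex, 0 lower in hippocampal than in cortical culture, and 5 for the difference in preparation effect between regions. In hippocampal against cortical culture 1 gene was higher with the smallest p among a gene's probe sets (Vldlr), with only the arrays of the groups compared or with litter as a fixed replicate block (Lhx1 both times), while 1 was lower with plain probe sets and 0 in the WT arrays alone, an alternative chosen after seeing the data. The litter block changed no other call of a count. For Fmr1KO against WT, 0 genes were called after adjustment in either culture, and 0 in cortical culture after median centring of the arrays or with only the arrays compared; leaving out 1 array gave 0 to 1 in each culture. In hippocampal culture the count with only the arrays compared was again 1, but of Ebf3 and not Lrp8, and in cortical culture the count with array weights was again 1, but of Reln and not Lrp8. Without litters 4236 and 3569 it was likewise 1, but of Trp73 (-0.28, below background) and not Lrp8. The Fmr1 effect differed between culture and tissue in hippocampus for 1 gene with quantile normalization, with only the arrays compared and with array weights (0 to 1 with 1 array left out), and in cortex for 1 gene with the smallest p. The cause of these changes was not tested, apart from thresholds and numbers of arrays that differ by construction. Signals below the background level of 5.17 limit Trp73, Lhx5, Lhx1 and Ebf3 in culture to bounds.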
